A study of Mus musculus with 6 samples.

Results

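B cell receptor signalling genes were compared between spleens of 2 kinds of F1 female mouse. The set holds 9 genes: Cd79a, Cd79b, Cd22, Cd72, Blnk, Btk, Syk, Blk and Lyn. A probe set, the group of short probes by which an Affymetrix array reads one transcript, was taken when the platform annotation gave it exactly 1 symbol and that symbol was in the set. This gave 12 probe sets for 8 genes, out of 45037 probe sets tested, and Lyn was not analysed here. Syk had 4 probe sets, Cd22 had 2, and each of the other 6 genes had 1, and probe sets of one gene are not independent of each other. The mice were adult hybrids with 1 parent of the inbred strain FVB/NJ. Crossing that strain with AKR/J gave 3 samples, called AKR/J spleens here, and crossing it with DBA/2J gave 3 samples, called DBA/2J spleens, so both groups are hybrids and neither is the inbred strain itself. No treatment other than anaesthesia at death is labelled, and each array carried RNA labelled as whole spleen, so every value averages over all cell types in the sample. The comparison addresses which transcripts differ between these genotypes at baseline.

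The B cell receptor is a membrane immunoglobulin that recognises antigen, paired with the CD79A and CD79B chains, whose cytoplasmic tails carry the signal. When antigen clusters the receptor, Src family kinases such as BLK and LYN phosphorylate those tails, SYK docks on them, and SYK phosphorylates the adaptor BLNK, which assembles BTK and phospholipase C gamma at the membrane. CD22 and CD72 are inhibitory coreceptors that recruit the phosphatase SHP-1 (encoded by Ptpn6) and dampen the signal. In the spleen these genes are expressed mainly by follicular and marginal zone B cells, while Syk and Btk are also used by myeloid cells and Syk by platelets.

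Sequences upstream of the transcription start were found in RefSeq (assembly GRCm38.p6) for 6 of the 9 genes, as 7 sequences, since Syk has 2 annotated starts. Those of Cd79a and Syk are shown because these genes had the probe sets that differed between the crosses, and that of Cd22 because all its AKR/J values lay above its DBA/2J values without passing the test. Each runs 5′ to 3′ over the 250 bases before the start, and capitals mark matches on either strand to ATGCAAAT (octamer), CCCNNGGG (EBF palindrome), TCNNGGGA (a shorter EBF form), GAGGAA (PU.1), GGAAGT (ETS), CAGGTG (E2A) and TGTGGT (RUNX).
Cd79a (chr7:24897247-24897496, plus strand): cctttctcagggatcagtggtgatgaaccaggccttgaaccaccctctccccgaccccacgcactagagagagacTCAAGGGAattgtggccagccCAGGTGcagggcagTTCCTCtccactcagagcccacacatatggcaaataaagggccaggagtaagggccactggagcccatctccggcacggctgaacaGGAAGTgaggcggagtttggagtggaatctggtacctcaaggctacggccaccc
Cd22 (chr7:30879029-30879278, minus strand): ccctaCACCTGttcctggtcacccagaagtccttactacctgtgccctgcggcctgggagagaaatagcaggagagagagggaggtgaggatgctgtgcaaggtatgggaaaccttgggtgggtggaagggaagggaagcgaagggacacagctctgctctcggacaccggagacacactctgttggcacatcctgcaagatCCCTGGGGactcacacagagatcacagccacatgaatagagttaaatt
Syk, first start (chr13:52583187-52583436, plus strand): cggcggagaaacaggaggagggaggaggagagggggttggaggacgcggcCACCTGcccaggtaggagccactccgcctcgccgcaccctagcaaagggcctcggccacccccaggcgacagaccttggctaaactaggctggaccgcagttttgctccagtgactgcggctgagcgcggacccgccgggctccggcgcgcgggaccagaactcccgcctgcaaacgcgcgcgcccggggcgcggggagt
Syk, second start (chr13:52596632-52596881, plus strand): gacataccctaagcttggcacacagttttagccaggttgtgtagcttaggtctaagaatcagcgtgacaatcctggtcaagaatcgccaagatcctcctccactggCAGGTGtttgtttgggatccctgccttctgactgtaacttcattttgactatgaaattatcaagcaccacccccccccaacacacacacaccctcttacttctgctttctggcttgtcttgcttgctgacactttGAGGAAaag
The Cd79a sequence held the shorter EBF form as TCAAGGGA, beginning 175 bases before the start, followed by E2A at 154, PU.1 at 140 and ETS at 54 bases. Of 32851 sequences of the same length in the reference table, 15.1% held that EBF form, 17.2% the E2A letters, 23.3% the PU.1 letters and 19.7% the ETS letters. Cd22 held the EBF palindrome as CCCTGGGG at 48 bases, letters present in 11.8% of the sequences, and E2A at 245 bases. Both Syk sequences held E2A, at 200 and 144 bases, and the second also held PU.1 at 9 bases. Among the members not printed, Blnk held the octamer at 130 bases, found in 1.60% of sequences, together with the shorter EBF form, E2A and ETS. Cd72 held PU.1 and ETS letters that overlap each other, at 47 and 49 bases, and Btk held none of the letters searched. These matches describe the letters of the reference mouse C57BL/6J, which is none of the 3 parents.

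Array values were taken as log2, and all differences are AKR/J minus DBA/2J, with standard errors (SE) from limma, a linear model that pools the spread across probe sets. Array medians lay between 5.04 and 5.10. At an adjusted p of 0.05 this model called 4688 of 45037 probe sets (10.4%), 2317 of them (5.14%) higher in AKR/J spleens and 2371 (5.26%) higher in DBA/2J spleens. After subtraction of array medians, 61.9% of the calls were higher in AKR/J spleens, against 49.4% as deposited and 45.0% after quantile normalization. Left out one at a time, AKR/J replicates 1, 2 and 3 gave 1001, 1513 and 1164 calls and those of DBA/2J spleens 4793, 1148 and 1253. Transcripts of pancreatic acinar cells were high in 5 arrays, all 3 of AKR/J spleens among them. Their mean over 11 genes lay between 12.97 and 13.72 there, above that of the B cell markers given below. DBA/2J replicate 3 stood apart, with a mean of 5.85. The source of the pancreatic transcripts was not tested. Red cell precursor genes also separated the crosses, 8 of 8 being lower in AKR/J spleens with a median of -1.78. The labels do not say whether replicates came from separate animals, so p-values measure the spread between these samples. The 18 B cell markers described with the lists averaged 9.60 to 9.96 per array, as a check of the labelled tissue. This check does not bear on the pancreatic transcripts. In whole spleen, fewer B cells and less RNA per B cell cannot be told apart.

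Transcripts of Cd79a and Syk were higher in AKR/J spleens, and no probe set of the family passed the test in the other direction. Cd79a differed by 1.28-fold, and the 2 Syk probe sets past the threshold by 1.45-fold and 1.47-fold. Of the 12 probe sets, 3 passed at an adjusted p of 0.05, where 10.4% of all probe sets did and 5.14% did so in this direction, and 7 were at an unadjusted p under 0.05, all higher in AKR/J spleens, as were 14.8% of all probe sets in that direction and 30.7% in either. With each gene read at its brightest probe set only, 1 of the 8 member genes passed, Cd79a. In that reading 6.29% of all genes were called higher in AKR/J spleens. The 3 AKR/J arrays lay above all 3 DBA/2J arrays for 7 of the 12 probe sets, against 17.7% of all probe sets. The difference was above 0 for 11 of the 12, with a median of 0.30, against a median of -0.02 over all probe sets. Left out one at a time, the AKR/J replicates 1, 2 and 3 gave 1, 2 and 1 member calls, and the DBA/2J replicates 6, 1 and 1.

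**Figure D1:**
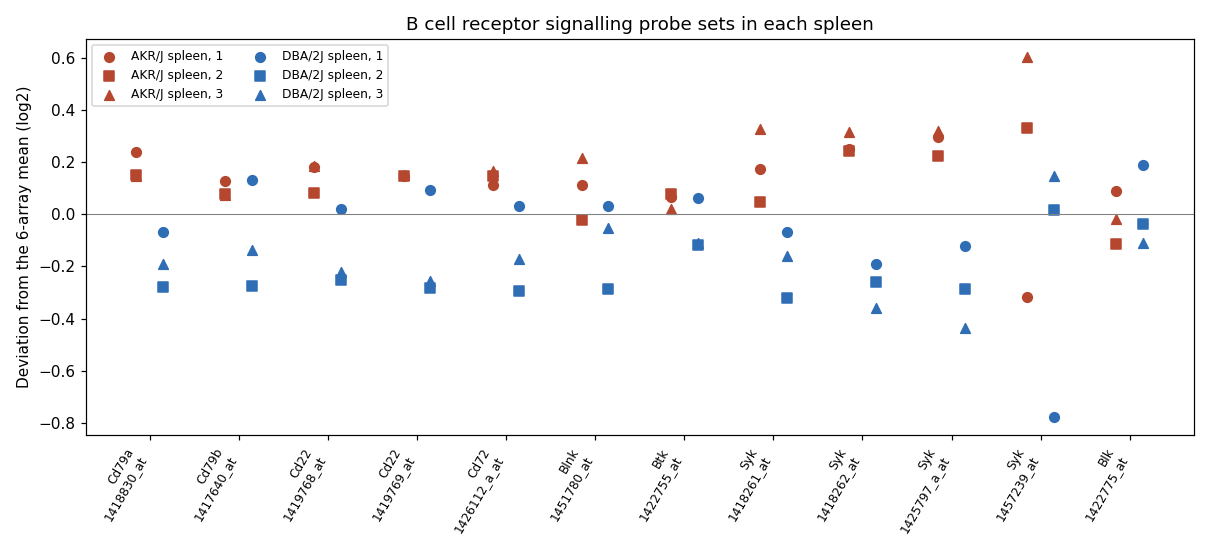
Deviation of each member probe set from its own mean over the 6 arrays (log2, vertical axis), with AKR/J spleens in red, DBA/2J spleens in blue and the marker shape giving the replicate. The AKR/J points of Cd79a and of Syk 1418262_at and 1425797_a_at lie wholly above the DBA/2J points, those of Blk mix, and DBA/2J replicate 1 is the highest blue point for 11 of 12 probe sets.

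The signalling chains of the receptor did not show the same separation. Cd79a, which encodes the CD79A (Ig-alpha) chain, was read by probe set 1418830_at at 12.09, 12.01 and 12.00 in AKR/J spleens and 11.79, 11.57 and 11.66 in DBA/2J spleens. Every AKR/J sample was above every DBA/2J sample, with means of 12.03 ± 0.05 and 11.67 ± 0.11 (SD, n = 3 each). The difference was 0.36 ± 0.09 (SE; 95% interval 0.16 to 0.56; limma adjusted p = 0.0395). Cd79b, which encodes the partner chain CD79B (Ig-beta), was read by 1417640_at at 12.04, 11.99 and 11.98 against 12.04, 11.63 and 11.77. DBA/2J replicate 1 stood level with the AKR/J samples, and the other two DBA/2J samples stood below them. Its difference of 0.19 ± 0.11 (interval -0.07 to 0.44; adjusted p = 0.287) did not pass. Within each array the Cd79a value minus the Cd79b value was higher in all 3 AKR/J samples than in the DBA/2J samples, by 0.17 on average (exact permutation p = 0.1, two-sided, the smallest that 3 against 3 allows; 0.233 after Benjamini-Hochberg adjustment over 28 pairs of members). The Cd79a call was lost without AKR/J replicate 1, 2 or 3 (adjusted p = 0.114, 0.0888 and 0.0878) and without DBA/2J replicate 2 or 3 (0.115 and 0.0997), and held without replicate 1 of that cross (0.0280). It was also lost after quantile normalization, where the difference was 0.32 (adjusted p = 0.0608).

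The inhibitory coreceptors Cd22 and Cd72 lay higher in all AKR/J samples than in all DBA/2J samples, but neither passed. Cd22 encodes a sialic acid binding lectin of the B cell surface. Its probe set 1419768_at stood at 11.65, 11.55 and 11.66 in AKR/J spleens and 11.49, 11.22 and 11.25 in DBA/2J spleens, a difference of 0.30 ± 0.10 (interval 0.08 to 0.52; adjusted p = 0.0804). The second, 1419769_at, stood at 10.09, 10.08 and 10.09 against 10.03, 9.66 and 9.68, a difference of 0.30 ± 0.11 (interval 0.04 to 0.55; adjusted p = 0.115). Both probe sets thus gave nearly the same difference, with DBA/2J replicate 1 closest to the AKR/J samples. Cd72, a lectin-like receptor whose ligand is CD100, stood at 9.45, 9.49 and 9.50 against 9.37, 9.05 and 9.17 at 1426112_a_at, a difference of 0.29 ± 0.10 (interval 0.06 to 0.51; adjusted p = 0.0951). Without DBA/2J replicate 1 the differences were 0.39 and 0.42 for Cd22 and 0.37 for Cd72, and all 3 passed (adjusted p = 0.0332, 0.0223 and 0.0378). They passed in none of the other 5 such fits.

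Among the kinases, Syk had the largest differences of the family and Blk the smallest. Syk encodes the tyrosine kinase that binds the phosphorylated receptor tails. At 1418262_at it stood at 10.06, 10.06 and 10.13 in AKR/J spleens and 9.62, 9.55 and 9.45 in DBA/2J spleens. The gap between the crosses was wider than the range within either (means 10.08 ± 0.04 and 9.54 ± 0.08, SD, n = 3 each). The difference was 0.54 ± 0.08 (interval 0.35 to 0.73; adjusted p = 0.0104). At 1425797_a_at the values were 8.77, 8.69 and 8.79 against 8.35, 8.18 and 8.04, again without overlap, and the difference was 0.56 ± 0.10 (interval 0.34 to 0.78; adjusted p = 0.0167). The brightest Syk probe set, 1418261_at, read 10.13, 10.01 and 10.29 against 9.89, 9.64 and 9.80. Its groups did not overlap either, and its difference of 0.37 ± 0.11 (interval 0.13 to 0.61; adjusted p = 0.0601) did not pass. The dim probe set 1457239_at spread widely in both crosses, at 5.39, 6.04 and 6.31 against 4.93, 5.73 and 5.85, and its difference was 0.41 ± 0.29 (interval -0.24 to 1.07; adjusted p = 0.357). All 4 probe sets had differences above 0 in every fit with 1 array left out. The call at 1418262_at held whichever array was left out (adjusted p between 0.00939 and 0.0437). The call at 1425797_a_at was lost without AKR/J replicate 1 or 3 (0.0596 and 0.0591) and without DBA/2J replicate 2 or 3 (0.0583 and 0.0511).

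Because Syk is not confined to B cells, marker genes of the other cells that use it are given beside it. Of 12 myeloid markers 0 passed in limma (5 at an unadjusted p under 0.05), and 12 of 12 had differences above 0, with a median of 0.20. Their summed linear signal was 23600 to 25381 in AKR/J spleens and 19803 to 23283 in DBA/2J spleens. Of 8 megakaryocyte and platelet markers 0 passed (4 at an unadjusted p under 0.05), and 0 had a difference above 0, with a median of -0.32. Their summed linear signal was 4963 to 6527 and 6178 to 8944. The part of these cells in the Syk difference was not tested.

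The adaptor and the remaining kinases did not pass. Blnk, the adaptor that links SYK to BTK and phospholipase C gamma, stood at 11.04, 10.90 and 11.14 in AKR/J spleens and 10.96, 10.64 and 10.87 in DBA/2J spleens, so that the groups overlapped. The difference was 0.20 ± 0.11 (interval -0.05 to 0.45; adjusted p = 0.241). Btk, the Tec family kinase whose loss impairs B cell development, stood at 9.16, 9.18 and 9.12 against 9.16, 8.98 and 8.99, a difference of 0.11 ± 0.08 (interval -0.08 to 0.30; adjusted p = 0.408). Blk, a Src family kinase largely restricted to the B lineage, stood at 10.28, 10.07 and 10.17 against 10.38, 10.15 and 10.08. The highest Blk value belonged to DBA/2J replicate 1, and the groups were interleaved. Its difference was -0.03 ± 0.10 (interval -0.27 to 0.21; adjusted p = 0.872), and the sign changed with the setting, with 0.0026 after median centring and -0.07 after quantile normalization. The interval of Blk leaves room for a change of up to 0.27 toward DBA/2J spleens or 0.21 toward AKR/J spleens.

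**Figure D2:**
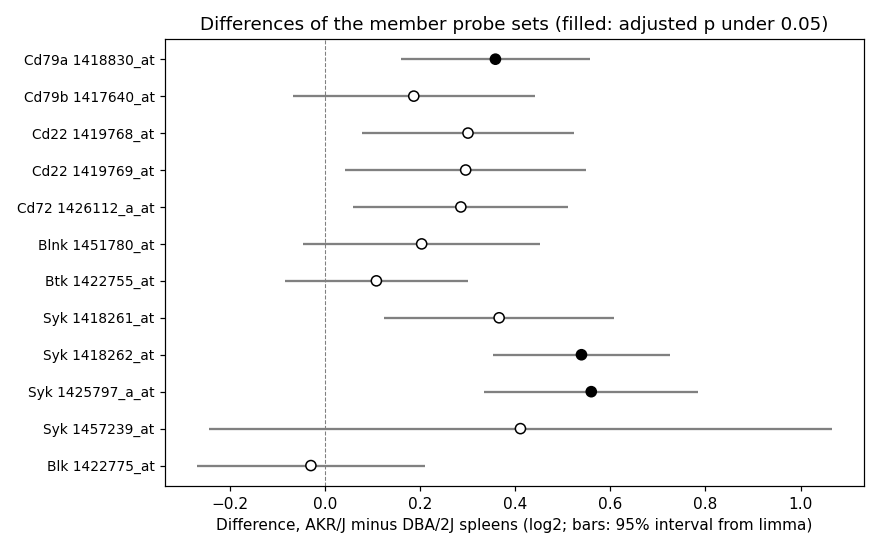
Difference between the crosses for each of the 12 probe sets (log2, horizontal axis) with its 95% interval from limma, filled where the adjusted p was under 0.05. Cd79a and 2 Syk probe sets are filled, at 0.36, 0.54 and 0.56, and the interval of Blk is centred near 0.

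Member genes at their brightest probe sets were also compared in 28 pairs, by the difference between both genes within each array. None could pass, since the smallest exact permutation p possible was 0.1, or 0.233 adjusted over the 28 pairs. The largest value was Syk against Blk, at 0.40, followed by Cd79a against Blk at 0.39 and Cd22 against Blk at 0.33. The difference of Syk at its brightest probe set and that of Cd79a were within 0.01 of each other.

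Spread within DBA/2J spleens was the larger for most members. The range over the 3 DBA/2J samples exceeded that over the 3 AKR/J samples for 11 of 12 probe sets. The share of all probe sets with such a range is not given here, so this count is not read as a trait of the members. Over all probe sets, arrays correlated at 0.988 to 0.994 within DBA/2J spleens and at 0.995 to 0.996 within AKR/J spleens. Replicate 1 was the highest DBA/2J sample for 11 of 12, the exception being Syk 1457239_at. It was also the highest DBA/2J sample in the means of the B cell, pathway, T cell, myeloid, plasma cell and megakaryocyte lists, but not of the erythroid and pancreatic lists. Relative to the AKR/J mean, that replicate stood at -0.25 for Cd79a, 0.04 for Cd79b, 0.01 for Btk and 0.21 for Blk. Replicates 2 and 3 stood at -0.46 and -0.37 for Cd79a and at -0.37 and -0.23 for Cd79b. At Syk 1418262_at the same 3 samples stood closer together, at -0.46, -0.53 and -0.63.

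A list of 18 further B cell genes gives the level of B cell transcripts outside the signalling set. Its mean deviation from the 6-array mean was 0.17, 0.06 and 0.07 in AKR/J spleens and 0.06, -0.17 and -0.19 in DBA/2J spleens, so that DBA/2J replicate 1 stood with the lower AKR/J samples. Of the 18 genes, 2 were higher in AKR/J spleens and 1 in DBA/2J spleens, where 6.29% and 6.17% of genes at their brightest probe sets were called in those directions. The list's median was 0.28, against -0.01 over all 18194 genes. H2-Ob, which encodes a chain of the MHC class II molecule H2-O, rose by 0.44 ± 0.09 in AKR/J spleens (adjusted p = 0.0235) and the follicle-homing chemokine receptor gene Cxcr5 by 0.50 ± 0.11 (adjusted p = 0.0313). Bach2, a transcription repressor of plasma cell formation, fell by 0.51 ± 0.11 at its brightest probe set (adjusted p = 0.0329), a call that was lost when the probe sets of the gene were averaged (-0.094, adjusted p = 0.404). Cxcr5 was lost after quantile normalization (0.0662). The list's count was 0, 0 and 1 without AKR/J replicates 1, 2 and 3 and 6, 0 and 0 without those of DBA/2J spleens. The fits with 0 calls in limma had 6 and 9 genes (AKR/J replicates 1 and 2) and 6 and 7 genes (DBA/2J replicates 2 and 3) at an unadjusted p under 0.05. H2-Ob and Cxcr5 passed without DBA/2J replicate 1 (adjusted p = 0.0112 and 0.0120) and in no other such fit (0.0673 to 0.0789 and 0.0628 to 0.0984). Bach2 passed without AKR/J replicate 3 (0.0311) and in no other (0.0585 to 0.0966).

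The members were then set against this B cell mean within each array. Syk at 1418262_at and 1425797_a_at was higher in every AKR/J sample, by 0.34 and 0.36 on average. Cd79a and Cd22 1419768_at also separated without overlap, by 0.16 and 0.10. Apart from Blk, the other 7 probe sets overlapped between the crosses, among them Cd79b at -0.01, Blnk at 0.0016 and Btk at -0.09. Blk separated in the opposite direction, every DBA/2J sample being above every AKR/J sample, by -0.23. Of all probe sets treated in this way, 4.04% had every AKR/J sample above every DBA/2J sample and 35.6% the reverse, so that a separation like that of Blk was common. The subtracted mean was itself higher in AKR/J spleens, which moves every probe set toward DBA/2J spleens. Before the subtraction 17.7% had every AKR/J sample above, so the 4.04% does not measure how rare the upward separations are. Each of the separations has an exact permutation p of 0.1, the smallest possible here.

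**Figure D3:**
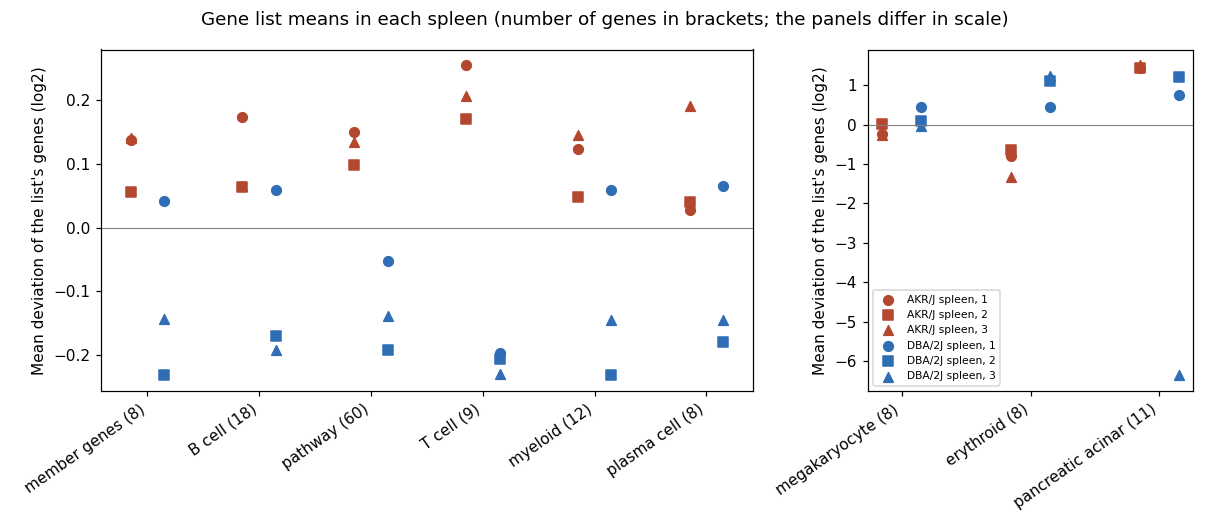
Mean deviation of each gene list from its 6-array mean (log2, vertical axes, which differ in scale between the panels) in the 6 spleens, with AKR/J spleens in red and DBA/2J spleens in blue. DBA/2J replicate 1 lies near the AKR/J spleens for the member list (0.04, against 0.06 to 0.14), the B cell, myeloid and plasma cell lists, and with its own cross for T cell genes, and DBA/2J replicate 3 is far below the others for pancreatic acinar genes.

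Marker genes of other cell types differed between the crosses to varying extents. Of 9 T cell markers 7 were higher in AKR/J spleens and 9 of 9 differences were above 0, with a median of 0.41 and a summed linear signal of 4151 to 4388 against 3141 to 3260. Erythroid markers gave 2672 to 4246 against 9470 to 14304. Of 8 plasma cell markers 0 passed in limma (4 at an unadjusted p under 0.05), with a median of 0.24 and a summed linear signal of 9522 to 9825 against 8216 to 9803. Pancreatic acinar markers gave 149630 to 156644 against 938 to 132064, and 0 of 11 passed (0 at an unadjusted p under 0.05). The part of these cells in the member differences was not tested. Without the DBA/2J replicate low in pancreatic transcripts, Cd79a differed by 0.35, Syk 1418262_at by 0.50 and Syk 1425797_a_at by 0.48, and with the pancreatic mean as a covariate, an alternative added once the data had been seen, by 0.36, 0.49 and 0.47. Under that covariate 0 of the 12 member probe sets passed in limma (adjusted p = 0.119, 0.0554 and 0.0709 for these 3), with 4 at an unadjusted p under 0.05.

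**Figure D4:**
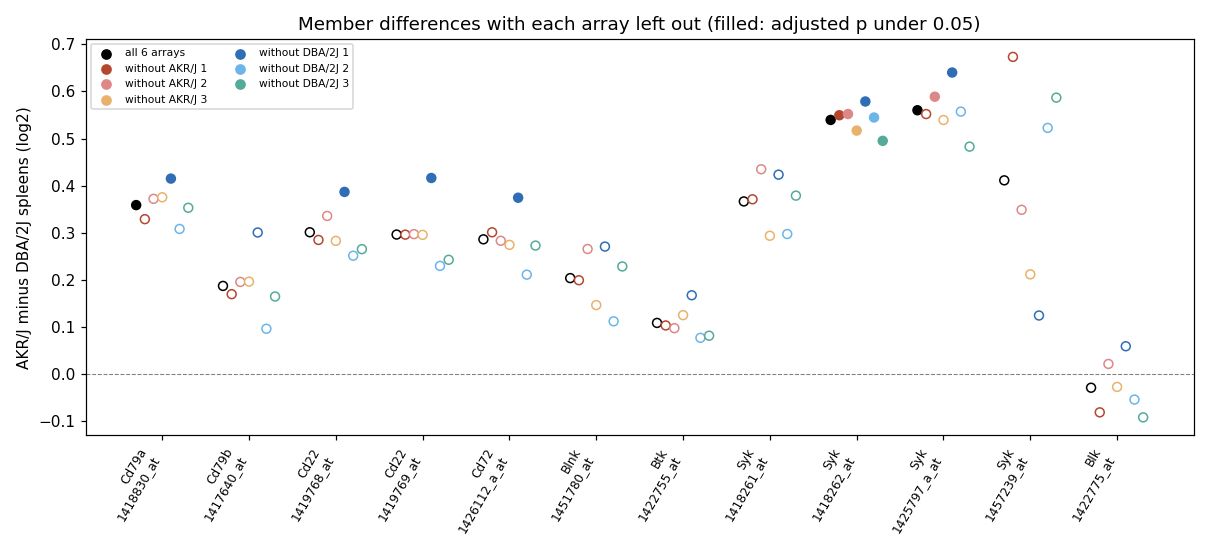
Difference between the crosses for each member probe set (log2, vertical axis) with all 6 arrays and with each array left out in turn, filled where the adjusted p was under 0.05. Syk 1418262_at stays filled throughout, between 0.50 and 0.58, while both Cd22 probe sets and Cd72 are filled only without DBA/2J replicate 1.

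Of 72 further genes listed for the pathway, 60 had a probe set named here, and 12 of these were higher in AKR/J spleens and 0 in DBA/2J spleens. The background at the brightest probe sets was 6.29% and 6.17%, and at an unadjusted p under 0.05 the counts were 33 and 0, where 17.8% and 17.3% of all genes stood. The difference was above 0 for 57 of the 60, with a median of 0.24 against -0.01 over all genes, and the AKR/J samples lay wholly above the DBA/2J samples for 40 of them, against 22% of all genes. The count of calls was 4, 4 and 4 without AKR/J replicates 1, 2 and 3 and 17, 3 and 3 without those of DBA/2J spleens, and 7 after quantile normalization.

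The pathway genes are given by role, receptors first. Of 4 inhibitory receptors 3 rose: Cd5, a scavenger receptor family member of T cells and B-1 cells, by 0.69 ± 0.10 (adjusted p = 0.00861), Siglecg, a sialic acid binding lectin related to CD22, by 0.58 ± 0.09 (0.0116) and Fcgr2b, the inhibitory Fc receptor, by 0.42 ± 0.08 (0.0237). Of 2 positive coreceptors Cr2, the complement receptor CD21, rose by 0.45 ± 0.09 (0.0234), and the tetraspanin gene Cd81 had a difference of 0.11 ± 0.08 (0.401). Ighm, a heavy chain gene of the membrane immunoglobulin, stood at 14.06 in AKR/J spleens and 14.15 in DBA/2J spleens. These values were close to the top of the array's range, and the difference was -0.09 ± 0.08 (0.487). Of 5 other kinases only Fyn, a Src family kinase also used by T cells, passed, at 0.55 ± 0.08 (0.00789). Cd5 and Fyn are also T cell genes, and 7 of 9 T cell markers rose as well, a part in these values that was not tested. Gsk3b and Tec had differences of 0.29 ± 0.08 (0.0506) and 0.36 ± 0.11 (0.0744).

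Adaptors and exchange factors numbered 17, of which 3 rose: Nck1 by 0.45 ± 0.10 (adjusted p = 0.0275), the PI3-kinase adaptor Pik3ap1 by 0.42 ± 0.09 (0.0298) and the B cell scaffold Bank1 by 0.36 ± 0.09 (0.0466). Of 9 genes of the calcium branch 2 rose, the calcineurin subunit Ppp3ca by 0.51 ± 0.09 (0.0188) and the calcium channel Itpr2 by 0.39 ± 0.09 (0.0304), while Itpr3 had a difference of 0.26 ± 0.09 (0.0851). Of 9 genes of the NF-kappaB and Ras branch 2 rose, the kinase Ikbkb by 0.49 ± 0.09 (0.0188) and the transcription factor Rel by 0.45 ± 0.10 (0.0330), and Rasgrp3 had a difference of 0.36 ± 0.10 (0.0524). Of 10 phosphatases and other brakes 0 passed in limma (3 at an unadjusted p under 0.05), the smallest p among them being that of the ubiquitin ligase Cbl (0.29 ± 0.09, adjusted p = 0.0694), followed by Pag1 (0.28 ± 0.10, 0.103) and Csk (0.20 ± 0.08, 0.128). Of 3 lipid enzymes 0 passed (2 at an unadjusted p under 0.05), with differences for Pik3cd of 0.32 ± 0.11 (0.0957), for the phospholipase Plcg2 of 0.22 ± 0.09 (0.151) and for Pik3r1 of 0.11 ± 0.08 (0.395). Of the 12 calls, 3 held whichever array was left out: Cd5 (adjusted p up to 0.0393), Siglecg (up to 0.0487) and Fyn (up to 0.0373). Itpr2 was lost in every such fit (0.0523 to 0.0906). The other 8 passed without DBA/2J replicate 1 (0.00970 to 0.0316), and of the other fits only Rel without AKR/J replicate 1 (0.0486), Nck1 without AKR/J replicate 3 (0.0447) and Ppp3ca without AKR/J replicate 2 (0.0454) passed. Without DBA/2J replicate 1, 6 genes not called with all 6 arrays passed: Rasgrp3 (0.0496), Pik3cd (0.0288), Dapp1 (0.0433), Lat2 (0.0477), Swap70 (0.0349) and Vav2 (0.0419), the last 4 being adaptors or exchange factors named after their values were seen. With the probe sets of each gene averaged, 6 of the 12 calls were lost: Fcgr2b (difference 0.21, adjusted p = 0.110), Ikbkb (0.19, 0.115), Itpr2 (0.04, 0.692), Nck1 (0.21, 0.119), Pik3ap1 (0.25, 0.0685) and Ppp3ca (0.27, 0.0517). After quantile normalization 5 were lost, Bank1, Itpr2, Nck1, Pik3ap1 and Rel (adjusted p = 0.0564 to 0.0907), and with the replicate block Rel was (0.0517).

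**Figure D5:**
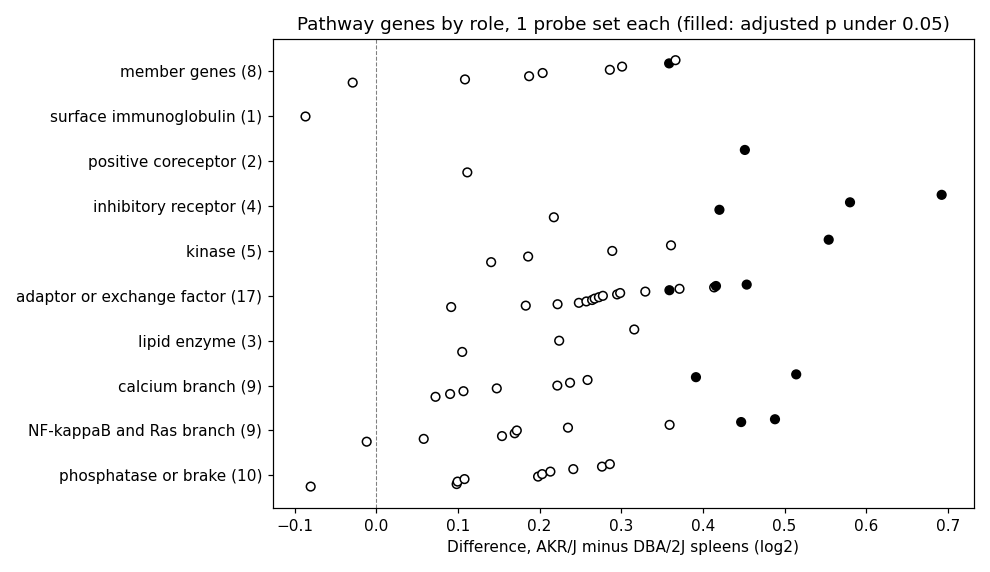
Difference between the crosses (log2, horizontal axis) for the 8 member genes and the 60 further pathway genes, 1 point per gene at its brightest probe set, grouped by role and filled where the adjusted p was under 0.05. All but a few points lie to the right of 0. Filled are 3 of 4 inhibitory receptors and 0 of 10 phosphatases and brakes, though 9 of those 10 also lie to the right of 0.

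The probe sets most like Cd79a were sought among 8066 with 1 symbol, a mean of at least 7 and at least 0.5 times its range, by the mean absolute difference between their deviations over the 6 arrays. The 5 nearest genes were Antxr2 (0.018), Tnfaip8 (0.020), Ppp2r1a (0.022), Phf20 (0.022) and Fcgr2b at its probe set 1455332_x_at (0.024). For the brightest Syk probe set, among 6445 candidates, they were Hddc3 (0.023), Tlr6 (0.030), Cyth1 (0.030), Adam19 (0.031) and Lgals3 (0.034). These distances describe profiles over 6 samples from 2 groups.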

How the data were processed

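Affymetrix arrays of 6 spleens gave one value per probe set. The deposited values were taken as log2 from their range. The submitters' processing notes name MAS5 and RMA without version or role, and the sources used here do not say which method made these values. Differences near background and near saturation may be compressed on this scale, which was not tested. A sequence variant of a parent that lies under a probe can alter its signal at equal transcript amount. Values ran from 1.81 to 14.56, and neither counts nor detection calls are given, so precision is limited by the number of arrays.

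Groups and replicate numbers came from the sample titles. Of 45101 rows, 64 Affymetrix controls were left out. Annotation gave 1 symbol to 34945 of 45037 probe sets, several to 932 and none listed here to 9160. Differences were tested with limma 3.58.1 (lmFit and eBayes, R 4.3.3, with data.table at version 1.17.8 and statmod at 1.5.0) without covariates in all 6 arrays, and p-values were adjusted by Benjamini-Hochberg over the 45037 probe sets. Each probe set had 4 residual degrees of freedom. Lists used each gene's brightest probe set, with symbols matched through gene identifiers. In lists, up to 3 genes per role with the smallest p were named, plus every gene called. Alternatives were each array centred on its median, quantile normalization, a filter at the 40th percentile of mean level, an intensity-trended robust variance, weights per array, a block for the replicate number, omission of each array, and averaging the probe sets of each gene. The averaging was run for the pathway and B cell lists only. No probe set was filtered out otherwise. Members, lists and motifs were chosen with earlier results of these data known.

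This fit was also tested on simulated data of the same size (45037 probe sets, 50 of them changed at each fold size, for AKR/J against DBA/2J): 1 of 50 was called at a log2 change of 0.3, 20 at 0.6, 38 at 1 and 50 at 2, with 5 false calls. All other simulated probe sets were left unchanged, while the data gave 4688 calls. The Benjamini-Hochberg cut-off falls at a smaller p where fewer probe sets change. These counts therefore check the fit and do not measure detection in the data. No 2 arrays held the same values, any pair sharing between 121 and 181 identical ones. Figures were drawn with matplotlib 3.10.9.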

Additional observations from a re-analysis of the deposited data

How the results depend on the processing

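The member differences kept their sign in all alternatives except that of Blk, which was 0.0026 after median centring and -0.092 to 0.059 with 1 array left out (above 0 without AKR/J replicate 2, at 0.021, and without DBA/2J replicate 1). Over 12 probe sets and 13 alternatives, 128 values stayed on their side of the threshold with the same sign, 13 lost a call, 12 gained one and 3 changed sign. The member count of 3 was 5 with a trended and robust variance, 7 with array weights, 0 with the pancreatic covariate added after the data were seen (4 at an unadjusted p under 0.05 in limma) and 1 to 6 with 1 array left out. The pathway count of 12 was 7 after quantile normalization, 21 with array weights, 2 with that covariate and 3 to 17 with 1 array left out. The B cell list's count of 3 was 5 with a trended and robust variance, 5 with array weights, 0 with the covariate (6 at an unadjusted p under 0.05 in limma) and 0 to 6 with 1 array left out. The count over all probe sets was 6570 with array weights (14.6%), 5091 with a trended and robust variance (11.3%), 3191 after quantile normalization (7.09%), 825 with the covariate (1.83%) and 1001 to 4793 with 1 array left out, against 4688. With the filter on mean level that count was 4417 of 27022 (16.3%). The cause of these shifts was not tested. Deviations of same-numbered arrays correlated at 0.05 to 0.20 and those of differently numbered arrays at -0.16 to 0.06. Of 6 arrays, 5 correlated best with their own number. Whether the replicate numbers pair the samples was not tested. With the replicate block the member count was 5, Syk 1418261_at and 1457239_at being gained (adjusted p = 0.0491 and 0.0343), and the pathway count 14. With probe sets averaged per gene the pathway count was 13, of which 6 were among the 12 calls at the brightest probe sets, and the B cell list's count was 3, without Bach2. With the covariate the pathway calls of Cd5 and Fyn held and the other 10 were lost. No alternative fitted to single probe sets lost the call of Syk 1418262_at but the covariate (adjusted p = 0.0554). Averaging the probe sets of each gene was not run for the members, so that call was not put to it.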
